A study of Homo sapiens with 12 samples.

Results

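The genes described here are 9 enzymes of the pentose phosphate pathway and of NADPH production, PGLS, PGD, RPIA, RPE, TKT, TALDO1, ME1, IDH1 and IDH2. They were chosen by symbol, with earlier results of these data known. Each had 1 row of the array table, so 9 of 28125 named genes were members. They were measured in SKM1, a long-established human myeloid leukaemia line, on 12 arrays. The groups of 3 were cells treated with 5-azacytidine and APR-246 together (APR-AZA), with 5-azacytidine alone (AZA), with APR-246 alone (APR), and untreated cells (NT). 5-Azacytidine is a cytidine analogue that inhibits DNA methylation once it is incorporated. APR-246 is a prodrug whose active product reacts with thiols, glutathione among them. Each drug was given at its IC50, the dose at the midpoint of its inhibitory effect, and all cells were harvested at 18 h. The model was a single cell line at 1 time, and its drug concentrations are not given here.

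The pentose phosphate pathway branches from glycolysis. Its oxidative arm turns a glucose phosphate into ribulose phosphate and reduces NADP to NADPH, and its non-oxidative arm interconverts sugar phosphates to make ribose for nucleotides or to return carbon to glycolysis. Malic enzyme and the NADP-dependent isocitrate dehydrogenases are further sources of NADPH, which glutathione reductase, thioredoxin reductase and lipid synthesis consume.

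Values are log2 signals as the authors deposited them, so a difference of 1 is a 2-fold change, and levels are compared between arrays for a gene. Apart from a cutoff for the dimmest genes, given below, levels are not compared between genes. A gene was called at a limma adjusted p under 0.05, adjusted over all 28125 genes, and ± after a change is its standard error (SE). Array medians ranged from 4.69 to 4.78, and arrays of a group correlated at 0.994 to 0.996. Of 9 myeloid markers listed, 8 were measured. Among them the granule protein MPO stood at 12.05 and the myeloid transcription factor SPI1 at 6.88 on average in NT arrays, while the monocyte marker CD14, at 3.46, lay under 3.86, the level below which the dimmest 30% of genes fell. Of 6 measured markers of other lineages, the T cell markers CD3E and CD3D, the B cell marker MS4A1 and the platelet marker PPBP lay under that level in NT arrays, at 2.95 to 3.68. The epithelial marker EPCAM did not, at 9.67 ± 0.11 (SD, n = 3), nor did the collagen gene COL1A1, at 6.49 ± 0.14 (SD, n = 3). All 9 enzymes averaged above the 3.86 level over the 12 arrays.

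In cells given both drugs, 5 of the 9 enzymes rose and 1 fell against untreated cells. ME1, PGD, IDH2, IDH1 and TALDO1 were higher, by 3.72-fold, 2.78-fold, 1.5-fold, 1.28-fold and 1.17-fold. RPIA was 1.94-fold lower, and RPE, TKT and PGLS were not called. Across all genes 22.3% were called in this comparison, 10.4% higher and 11.9% lower. With AZA alone 3 enzymes rose, ME1 by 3.75-fold, PGD by 2.68-fold and IDH2 by 1.42-fold, and RPIA was 1.89-fold lower, where 20.9% of all genes were called, 9.79% higher and 11.1% lower. With APR alone 0 of the 9 were called, where 0.00356% of all genes, which is the 1 gene NQO1, were called. The median change of the 9 on the log2 scale was 0.22 with both drugs, 0.16 with AZA and 0.04 with APR, beside 0.00 over all genes in each. These comparisons share the NT arrays. A bulk signal cannot tell more cells with a transcript from more transcript per cell.

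Overlap between arrays gave a reading that does not use the model. With both drugs 6 enzymes had all 3 arrays above all 3 NT arrays, where 16.9% of all genes did, and 1 had them all below, where 18.1% did, so that 7 of 9 did not overlap beside 35% of all genes. With AZA 5 were above (15.1% of genes) and 1 below (17%), 6 of 9 beside 32.1%. With APR 2, ME1 and TALDO1, were above (3.44%) and 1, RPIA, below (4.04%), 3 of 9 beside 7.48%. APR-AZA against APR had 6 above (16.4%) and 1 below (17.8%), 7 of 9 beside 34.3%. APR-AZA against AZA had 2 above (5.8%), IDH1 and TKT, and 0 below (5.77%), 2 of 9 beside 11.6%. For TKT the lowest APR-AZA array and the highest arrays of AZA and of APR all read 11.09 after rounding. Its place in these last 2 comparisons therefore rests on a difference smaller than the rounding.

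**Figure D1:**
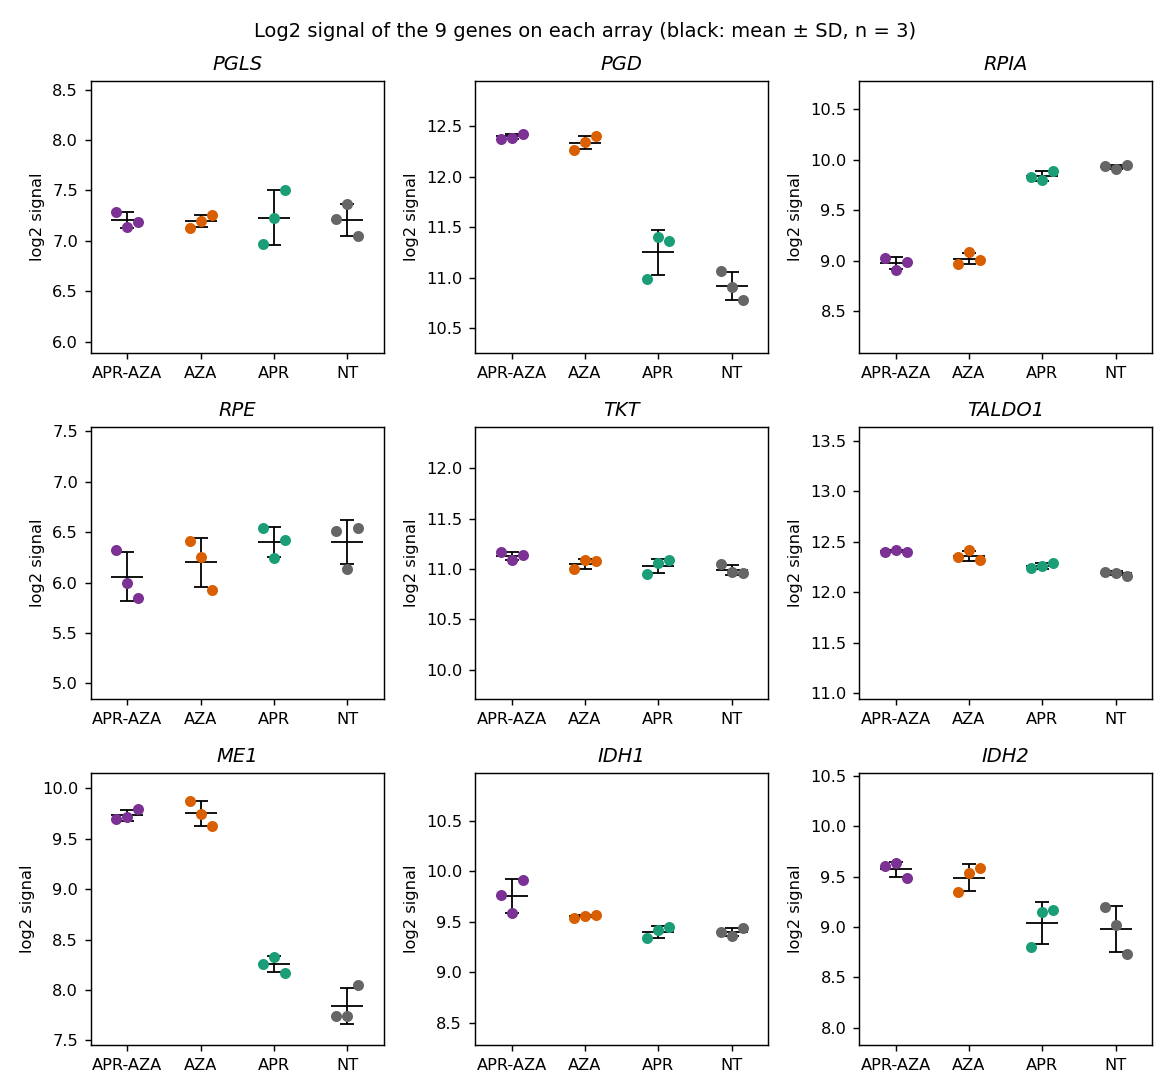
Log2 signal of each of the 9 genes on every array, 1 panel per gene, with the groups APR-AZA, AZA, APR and NT along the x axis. Points are arrays, black bars the mean ± SD (n = 3), and each y axis spans 2.7 log2 units. The AZA-containing groups stand apart from APR and NT for ME1, PGD, RPIA and IDH2, whereas PGLS lies between 6.97 and 7.50 on all 12 arrays.

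The sequences shown next are the promoter windows of the enzyme that rose most (ME1), of the next (PGD), of IDH1, which also rose with both drugs, and of the enzyme that fell (RPIA). They are RefSeq windows on GRCh38.p14, from 250 bases before to 50 bases after the gene start, printed 5′ to 3′ on the gene's strand. ME1 is from chr6:83431002-83431301 (minus strand), PGD from chr1:10398814-10399113 (plus strand), IDH1 from chr2:208255022-208255321 (minus strand) and RPIA from chr2:88691423-88691722 (plus strand). Capitals mark each match, on either strand, to TGACNNNGC, the core of the antioxidant response element, the site known to be bound by NRF2 with small MAF proteins. IDH2, which rose more than IDH1, and TALDO1 also rose with both drugs, but their windows hold no match and are not shown. The window of RPE, which was not called, holds a match, and a further IDH1 window holds none. Neither is shown.
ME1: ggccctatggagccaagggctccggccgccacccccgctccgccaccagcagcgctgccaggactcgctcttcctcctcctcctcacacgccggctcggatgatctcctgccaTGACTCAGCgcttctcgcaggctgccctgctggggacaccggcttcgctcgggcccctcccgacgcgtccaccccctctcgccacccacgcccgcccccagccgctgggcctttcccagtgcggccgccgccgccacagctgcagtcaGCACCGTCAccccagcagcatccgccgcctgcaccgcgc
PGD: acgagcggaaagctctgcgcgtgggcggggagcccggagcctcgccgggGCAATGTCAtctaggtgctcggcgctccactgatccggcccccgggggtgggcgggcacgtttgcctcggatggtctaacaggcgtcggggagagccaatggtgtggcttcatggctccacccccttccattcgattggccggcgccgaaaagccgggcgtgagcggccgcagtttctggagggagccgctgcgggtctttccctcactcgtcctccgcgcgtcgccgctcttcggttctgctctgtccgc
IDH1: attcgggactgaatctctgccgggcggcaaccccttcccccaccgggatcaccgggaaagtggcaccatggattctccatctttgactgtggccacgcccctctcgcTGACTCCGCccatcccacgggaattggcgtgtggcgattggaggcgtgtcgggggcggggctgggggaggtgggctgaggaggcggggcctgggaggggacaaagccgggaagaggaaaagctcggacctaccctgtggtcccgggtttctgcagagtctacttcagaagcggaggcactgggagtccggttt
RPIA: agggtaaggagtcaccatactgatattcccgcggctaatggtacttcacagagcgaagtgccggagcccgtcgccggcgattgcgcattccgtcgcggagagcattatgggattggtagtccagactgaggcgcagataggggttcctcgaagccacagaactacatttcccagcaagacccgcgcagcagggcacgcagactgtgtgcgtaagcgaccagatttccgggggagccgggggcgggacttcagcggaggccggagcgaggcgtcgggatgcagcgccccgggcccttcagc

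The TGACNNNGC core was present in 4 of the 10 windows of the 9 enzymes, each from a different enzyme. It was present in 13.3% of the 35116 RefSeq promoter windows and in 13.8% of those of tested genes. The ME1 window held TGACTCAGC, starting at -137 from the gene start, and a second match, GCACCGTCA, on the opposite strand just past the start. The match in PGD, GCAATGTCA, was on the opposite strand at -201, that in IDH1, TGACTCCGC, was at -143 in 1 of its 2 windows, and RPE had TGACAGCGC at -151. RPIA, TKT, TALDO1, PGLS and IDH2 had none in their windows. Neither TGATGNAA, the core of the composite element of ATF4 and C/EBP proteins, nor CACGTG, the E-box of MYC and its partners, was found in any of the 10 windows of the 9 enzymes, both strands read. No TGACNNNGC match therefore overlapped either of them, and overlap with other motifs was not examined. TGATGNAA and CACGTG were present in 3.62% and 7.26% of all windows. A match describes the letters of the window and was not tested as a site.

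PGLS and PGD act in the oxidative arm. PGLS hydrolyses the lactone that the first oxidation leaves. Its log2 signal was 7.29, 7.14 and 7.19 on APR-AZA arrays, 7.13, 7.20 and 7.26 on AZA arrays and 6.97, 7.23 and 7.50 on APR arrays, against 7.22, 7.37 and 7.05 on NT arrays. All 4 groups overlapped, and their order is within the spread. The change of PGLS with both drugs was -0.01 ± 0.12 on the log2 scale and was not called (limma adjusted p = 0.981). Its 95% interval was -0.28 to 0.26, so a change within that range remains possible.

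PGD oxidises phosphogluconate and releases carbon dioxide, and it makes NADPH. PGD signals were 12.38, 12.39 and 12.42 on APR-AZA arrays, 12.27, 12.35 and 12.40 on AZA arrays and 10.99, 11.40 and 11.36 on APR arrays, against 11.07, 10.91 and 10.78 on NT arrays. The 6 arrays with AZA lay above the 6 without, the APR-AZA and AZA arrays overlapped, and 1 APR array fell within the NT range. With both drugs PGD rose by 1.47 ± 0.11 on the log2 scale (limma adjusted p = 5.43e-07), and with AZA alone by 1.42 ± 0.11 (adjusted p = 8.44e-07). By size 1.26% of all genes changed as much as PGD or more in either comparison. With APR alone the PGD value was 0.33 ± 0.11, which was not called (adjusted p = 1).

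RPIA, RPE, TKT and TALDO1 make up the non-oxidative arm. RPIA, the isomerase that forms ribose phosphate, gave 9.03, 8.91 and 8.99 on APR-AZA arrays, 8.97, 9.08 and 9.01 on AZA arrays and 9.83, 9.80 and 9.89 on APR arrays, against 9.94, 9.91 and 9.95 on NT arrays. Here the 6 arrays with AZA were below the 6 without, and the APR arrays were below the NT arrays too, by a mean of 0.10. RPIA fell by 0.96 ± 0.07 on the log2 scale with both drugs (limma adjusted p = 4.48e-07) and by 0.92 ± 0.07 with AZA (adjusted p = 7.31e-07). The APR value of -0.10 ± 0.07 was not called (adjusted p = 1).

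RPE, the epimerase that forms xylulose phosphate, gave 6.32, 6.0 and 5.85 on APR-AZA arrays, 6.41, 6.25 and 5.93 on AZA arrays and 6.54, 6.24 and 6.42 on APR arrays, against 6.51, 6.14 and 6.54 on NT arrays. Each group overlapped its neighbour in the order of means, APR, NT, AZA and APR-AZA. RPE stood at -0.34 ± 0.15 with both drugs (interval -0.68 to -0.01, limma adjusted p = 0.153). The gene has a close copy, RPEL1, whose transcript its probes may read. RPEL1, named here after its values were seen, stood at -0.22 ± 0.13 in the same comparison (adjusted p = 0.301).

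The transferases TKT and TALDO1 move carbon units between sugar phosphates and link the pathway back to glycolysis. TKT spanned 0.22 log2 units over the 12 arrays, with 11.17, 11.09 and 11.14 on APR-AZA arrays, 11.00, 11.09 and 11.08 on AZA arrays and 10.95, 11.06 and 11.09 on APR arrays, against 11.05, 10.97 and 10.96 on NT arrays. The APR-AZA arrays were above the NT arrays without overlap, but the value of 0.14 ± 0.07 was not called (limma adjusted p = 0.203). TALDO1 gave 12.40, 12.42 and 12.40 on APR-AZA arrays, 12.35, 12.42 and 12.32 on AZA arrays and 12.24, 12.26 and 12.29 on APR arrays, against 12.20, 12.19 and 12.16 on NT arrays. Each treated group was above NT without overlap.

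TALDO1 was called with both drugs, at 0.22 ± 0.07 (limma adjusted p = 0.026), and not with AZA, at 0.18 ± 0.07 (adjusted p = 0.0783), and the difference between these values was not called either (0.04 ± 0.07, adjusted p = 0.986). The call with both drugs was lost when any 1 of the 6 arrays was left out. The adjusted p of TALDO1 was 0.0652, 0.0798 and 0.0646 without APR-AZA replicates 1, 2 and 3, and 0.0506, 0.058 and 0.0737 without NT replicates 1, 2 and 3.

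ME1, IDH1 and IDH2 make NADPH outside the pathway. ME1, the cytosolic malic enzyme that turns malate into pyruvate, had the largest change of the 9. Its signals were 9.70, 9.72 and 9.79 on APR-AZA arrays, 9.87, 9.74 and 9.63 on AZA arrays and 8.26, 8.33 and 8.17 on APR arrays, against 7.74, 7.74 and 8.05 on NT arrays. The groups fell into 3 levels, with APR-AZA and AZA overlapping at the top, APR below them and NT lowest. ME1 rose by 1.89 ± 0.10 on the log2 scale with both drugs (limma adjusted p = 2.45e-08) and by 1.91 ± 0.10 with AZA (adjusted p = 2.49e-08), and 0.626% and 0.519% of all genes changed as much or more in these comparisons.

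With APR alone ME1 stood at 0.42 ± 0.10 on the log2 scale, a 1.33-fold value that was not called (limma adjusted p = 1). All 3 APR arrays were above all 3 NT arrays, and 0.715% of genes had a value as large in either direction. In the same comparison NQO1, the NADPH-using quinone reductase, stood at 0.91 ± 0.09 and was the 1 gene called (adjusted p = 0.0107). NQO1 no longer passed with NT replicate 2 left out (adjusted p = 0.114) or NT replicate 3 (0.116), within a range of 0.000785 to 0.437 over its 15 alternatives.

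IDH1, the NADP-dependent isocitrate dehydrogenase of the cytosol and peroxisomes, gave 9.77, 9.59 and 9.92 on APR-AZA arrays, 9.54, 9.56 and 9.57 on AZA arrays and 9.34, 9.42 and 9.45 on APR arrays, against 9.40, 9.36 and 9.44 on NT arrays. The APR-AZA arrays were above the AZA arrays, those above the APR arrays, and APR and NT overlapped. IDH1 rose by 0.36 ± 0.09 with both drugs (limma adjusted p = 0.0077), and its AZA value of 0.16 ± 0.09 was not called (adjusted p = 0.259). The step between them, APR-AZA against AZA, was 0.20 ± 0.09 and not called (adjusted p = 0.986), and it was 0.119 without APR-AZA replicate 3.

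IDH2, the mitochondrial counterpart, gave 9.60, 9.63 and 9.49 on APR-AZA arrays, 9.35, 9.53 and 9.58 on AZA arrays and 8.80, 9.15 and 9.17 on APR arrays, against 9.20, 9.02 and 8.73 on NT arrays. The arrays with AZA lay above those without, and overlap was seen within each of these sets. IDH2 rose by 0.59 ± 0.13 with both drugs (limma adjusted p = 0.00409) and by 0.50 ± 0.13 with AZA (adjusted p = 0.0118). With NT replicate 3 left out the AZA value was 0.38 and no longer called (adjusted p = 0.0554, the highest of 15 alternatives, the lowest being 0.00493).

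**Figure D2:**
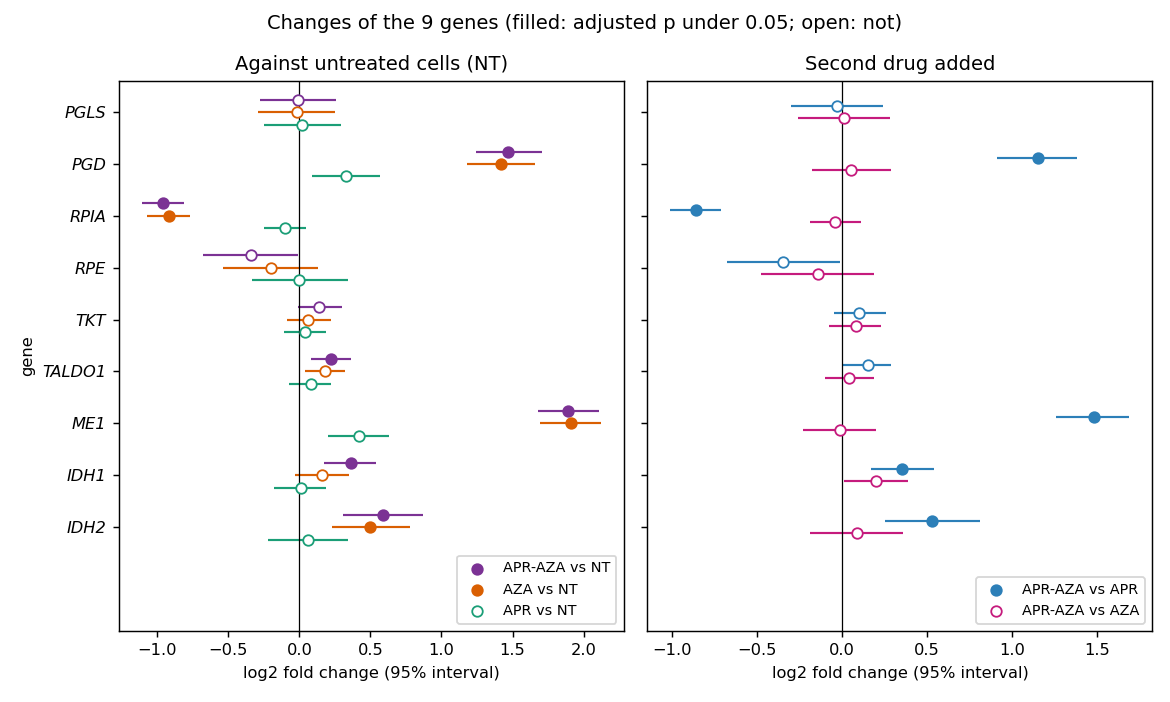
Log2 fold changes of the 9 genes with 95% intervals. The left panel gives APR-AZA, AZA and APR against NT, and the right panel APR-AZA against APR and against AZA. Filled points have a limma adjusted p under 0.05 and open points do not. In the right panel the points of APR-AZA against AZA lie between -0.14 and 0.20 and are all open, while ME1 stands at 1.48 in APR-AZA against APR.

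Adding AZA to APR was set against APR alone. There 4 enzymes rose, ME1 by 2.79-fold, PGD by 2.21-fold, IDH2 by 1.45-fold and IDH1 by 1.28-fold, and RPIA was 1.82-fold lower, where 20.7% of all genes were called, 9.45% higher and 11.2% lower. Their limma adjusted p were 2.72e-07 for ME1, 6e-06 for PGD, 0.00883 for IDH2, 0.00929 for IDH1 and 1.37e-06 for RPIA. TALDO1 stood at 0.15 ± 0.07 (adjusted p = 0.155) and RPE at -0.35 ± 0.15 (adjusted p = 0.152). These values and those of both drugs against NT share the APR-AZA arrays.

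Adding APR to AZA gave 0 called enzymes of 9 by limma, and 0% of all genes were called. At an unadjusted p under 0.05 there was 1 of the 9, IDH1, and 1319 of 28125 genes, and without variance moderation the count of enzymes was also 0. The 95% interval of APR-AZA against AZA on the log2 scale was -0.23 to 0.20 for ME1, -0.18 to 0.29 for PGD and -0.19 to 0.11 for RPIA. For IDH1 it was 0.01 to 0.39. With APR alone against NT, 2 of the 9 enzymes, ME1 and PGD, and 1095 genes had an unadjusted p under 0.05, and 0 enzymes were called without variance moderation.

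Non-additivity is what remains of the combined change after both single-drug changes are subtracted. By limma 0 of the 9 enzymes and 0% of all genes were called for it, and 0 genes were called without variance moderation. At an unadjusted p under 0.05 there was 1 enzyme, ME1, among 990 of 28125 genes. For ME1 the combined change was 1.89 where the single changes summed to 2.32, a difference of -0.43 ± 0.14 (95% interval -0.73 to -0.13, adjusted p = 1). For PGD the combined change was 1.47 against a sum of 1.75, a difference of -0.27 ± 0.15 (interval -0.61 to 0.06). For IDH1 the difference had the other sign, at 0.19 ± 0.12 (interval -0.07 to 0.46), and it was 0.113 without APR-AZA replicate 3.

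**Figure D3:**
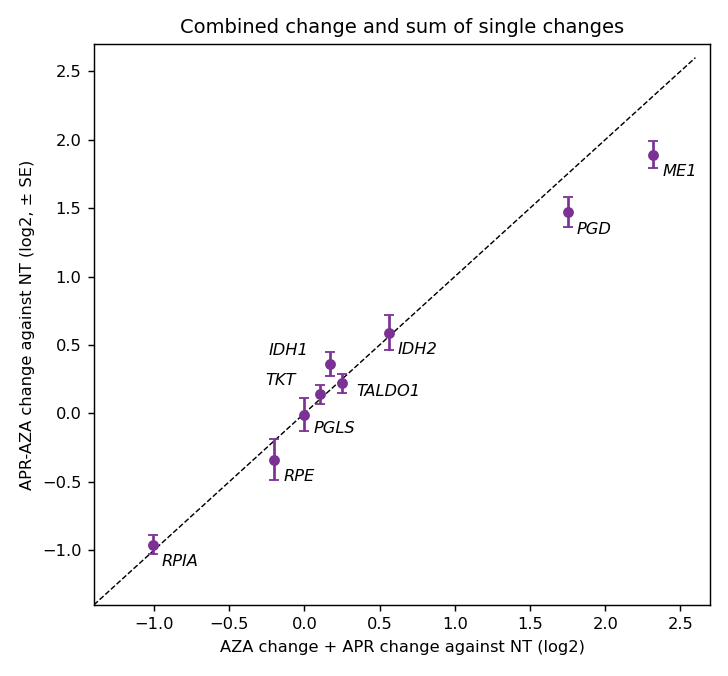
Change with both drugs against NT (y axis, log2, ± SE) plotted over the sum of the AZA and APR changes (x axis, log2) for the 9 genes. The dashed line marks equality, and both axes use the same NT arrays. ME1 and PGD lie under the line, IDH1 above it and RPIA, at -0.96 over -1.01, close to it.

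For ME1, PGD, RPIA, TALDO1, IDH1 and IDH2 the arrays that received AZA did not overlap those that did not, whereas for PGLS, RPE and TKT they did. The share of all genes that split in this way over the 12 arrays was not counted, so the split is not read as particular to these enzymes. With 3 arrays against 3, 35% of all genes did not overlap between APR-AZA and NT and 32.1% between AZA and NT. Pearson's r over the 12 arrays, which share the quantile normalization and the AZA split, was 0.97 between ME1 and PGD, 0.93 between PGD and IDH2 and -0.99 between ME1 and RPIA, while PGLS stayed between -0.21 and 0.42 with the other 8. Over the same arrays the 5 genes with the pattern most like that of ME1 were the antisense RNA MSC-AS1 (0.999), the small GTPase RIT1 (0.997), the scaffold protein IQGAP1 (0.996), the inflammasome sensor NLRC4 (0.996) and the annexin ANXA1 (0.996). Those most like RPIA were the isomerase PPIL1 (0.998), FDXACB1, the metalloreductase STEAP3, the homeobox gene ESX1 and the granule protease PRTN3 (0.997 each). These values are descriptions of 12 arrays in 4 groups.

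Other genes that feed or draw on the same sugars and cofactor were read from lists with earlier results known. Among 13 other pentose phosphate and ribose genes 0 rose and 4 fell with both drugs, where 10.4% of all genes rose and 11.9% fell, with a median of -0.15 on the log2 scale. PRPS1, which activates ribose phosphate for nucleotide synthesis, fell by 0.95 ± 0.09 (limma adjusted p = 4.55e-06), and GPI, the glycolytic isomerase at the branch point, fell by 0.68 ± 0.08 (adjusted p = 2.05e-05). With AZA alone the counts were again 0 and 4, where 9.79% of all genes rose and 11.1% fell, with a median of -0.08, and PRPS1 and GPI fell by 1.02 and 0.73. RPIA and PRPS1 stand in sequence on the way to activated ribose, and both transcripts were lower with AZA. The amount of ribose made was not measured, and an effect on this route was not tested.

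A list of 10 other NADPH-making and NAD kinase genes was not sorted by which of NADP and NAD each enzyme prefers. Of these 10 genes 2 rose and 4 fell with both drugs, with a median of -0.06, beside 10.4% and 11.9% of all genes. With AZA 2 rose and 3 fell, beside 9.79% and 11.1%. The count called with both drugs was 4 in place of 6 without APR-AZA replicate 2 or without NT replicate 1. The mitochondrial folate enzymes ALDH1L2 and MTHFD2 rose by 3.30 ± 0.11 and 1.13 ± 0.07 on the log2 scale (limma adjusted p = 4.42e-10 and 6.45e-08). MTHFD1, the cytosolic folate enzyme, named here after its values were seen, fell by 0.87 ± 0.07 (adjusted p = 1.91e-06). Where IDH1 and IDH2 rose with both drugs, the catalytic subunit of the NAD-dependent isocitrate dehydrogenase, IDH3A, fell by 0.65 ± 0.08 (adjusted p = 2.92e-05). The cytosolic malate dehydrogenase MDH1 fell by 0.70 ± 0.08 (adjusted p = 2.18e-05). In all, of 8 genes listed for the citric acid cycle 0 rose and 6 fell both with both drugs, with a median of -0.41, and with AZA, with a median of -0.46. This list includes ACO1 and MDH1, the cytosolic forms of their enzymes, and both are among the genes that fell.

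The enzymes that spend NADPH were read as 3 lists, beside 10.4% of all genes higher and 11.9% lower with both drugs and 9.79% and 11.1% with AZA. Of 8 antioxidant and reductase genes 6 rose and 0 fell with both drugs, with a median of 0.65, and 4 rose with AZA. NQO1 rose by 2.66 ± 0.09 and the thioredoxin reductase TXNRD1 by 1.85 ± 0.07 on the log2 scale (limma adjusted p = 6.82e-10 and 1.45e-09), and the glutathione reductase GSR, named after its values were seen, by 1.26 ± 0.08 (adjusted p = 8.64e-08). Of 5 genes of NADPH-using synthesis 0 rose and 4 fell with both drugs, with a median of -0.90, and likewise with AZA, with a median of -0.79. The sterol reductase DHCR7 fell by 1.80 ± 0.12 and the squalene oxidase SQLE by 0.93 ± 0.07 (adjusted p = 1.78e-07 and 8.95e-07).

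The phagocyte NADPH oxidase, which spends NADPH to make superoxide, had 2 of 4 measured genes higher and 0 lower with both drugs, and 2 higher and 1 lower with AZA, beside 22.3% and 20.9% of all genes called in either direction. Its cytosolic subunit NCF4 rose by 1.87 ± 0.09 with both drugs (limma adjusted p = 8.32e-09), and the catalytic subunit CYBB stood at 0.20 ± 0.07 (adjusted p = 0.0486). Leaving out any 1 of the 6 arrays ended the CYBB call with both drugs, at an adjusted p of 0.0779, 0.151 and 0.109 without APR-AZA replicates 1, 2 and 3 and of 0.0681, 0.155 and 0.0818 without NT replicates 1, 2 and 3, within a range of 0.00298 to 0.155 over its 15 alternatives. With AZA CYBB also lost its call without AZA replicates 1, 2 and 3 (0.0872, 0.0561 and 0.0661) and without NT replicates 2 (0.104) and 3 (0.0522). Myeloid markers moved on the same arrays, MPO falling by 1.35 ± 0.11 and SPI1 rising by 0.55 ± 0.07 with both drugs, with 2 of 8 higher and 3 lower, and their part in these results was not tested.

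**Figure D4:**
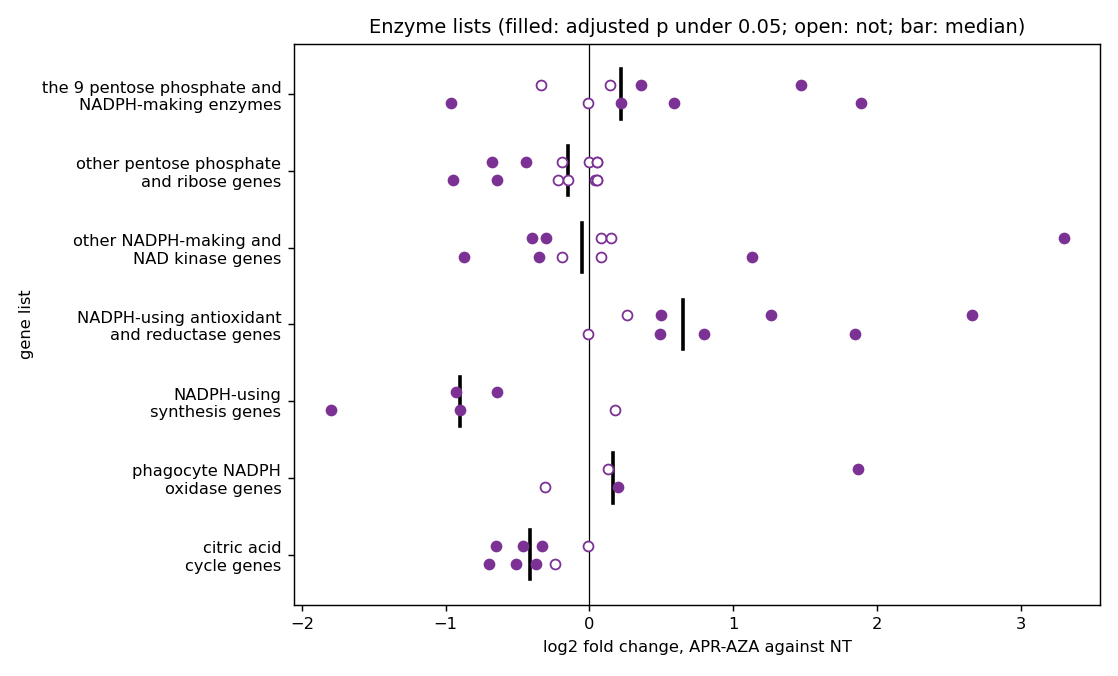
Log2 fold change with both drugs against NT for each gene of 7 lists, the 9 enzymes at the top. Filled points have a limma adjusted p under 0.05, open points do not, and the black bar is the list's median. The bar lies at 0.22 for the 9 enzymes, at 0.65 for NADPH-using antioxidant and reductase genes and at -0.90 for NADPH-using synthesis genes.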

How the data were processed

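Gene expression was measured on 12 arrays of SKM1 cells, 3 per group. Each array took 250 ng of total RNA, converted to biotinylated sense-strand DNA, per the labels' protocols. The log2 values deposited by the authors were made with RMA, and Partek is also named, per the submitters' processing notes. RMA removes background, equalises the arrays' distributions and summarises probes per gene, so low signals are compressed and a shift common to most genes would not show. The sources used here do not give their annotation or genome build. Arrays have no counting depth, so their number limits precision. Nothing in the labels says that the arrays of a group were separate cultures, so their spread, and the p-values that rest on it, may be technical.

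Of 29413 rows, 28129 had 1 symbol in the platform annotation, 0 had several and 1284 had none. Where a symbol had several rows (4 symbols) the brightest was kept, giving 28125 genes. The test was limma 3.58.1, run in R 4.3.3 with lmFit and eBayes, in 1 model with 4 group means, 12 arrays and 8 residual degrees of freedom, with Benjamini-Hochberg adjustment over all genes and a threshold of 0.05. The fit was tested on simulated data. Of 73 listed genes beside the 9 enzymes, 62 were measured, and the others are not analysed here. From each list the 2 called genes with the largest changes with both drugs are named, filled up with uncalled ones where fewer were called, and the 5 genes most correlated with the enzymes that rose and fell most. Members and lists were chosen with earlier results of these data known. Promoter windows came from RefSeq on GRCh38.p14, with all 9 symbols matched, and were used for sequence alone.

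Alternatives tried were leaving out the dimmest 30% of genes, quantile normalization repeated, median centring, a trended and robust variance, no variance moderation, the compared groups alone, array weights, the mean of rows of a symbol, the replicate number as a block, and each array left out in turn.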

Additional observations from a re-analysis of the deposited data

How the results depend on the processing

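The count of enzymes called was 5 to 6 of 9 over the 15 alternatives for both drugs against NT, 3 to 5 for AZA against NT and 5 to 6 for APR-AZA against APR, and 0 throughout for APR against NT, APR-AZA against AZA and, over 20 alternatives, non-additivity, for which the compared groups alone are the whole design. The calls of ME1, PGD and RPIA held in each alternative of the 3 comparisons that called them. TALDO1 with both drugs lost its call under median centring (adjusted p = 0.0928), the compared groups alone (0.0697), the replicate block (0.0561) and without any 1 array, and its adjusted p ranged from 0.000405 to 0.0928. It gained one under a trended and robust variance and without moderation, with AZA (0.0029 and 0.00147) and in APR-AZA against APR (0.0118 and 0.00415). The cause was not tested.

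Signs turned only for values near 0 that were not called. PGLS turned under quantile normalization repeated with both drugs (0.006) and with AZA (0.00), under array weights with APR (-0.001) and in non-additivity (0.005), and under median centring in APR-AZA against AZA (-0.001). RPE turned with APR under array weights (-0.023) and ME1 in APR-AZA against AZA under quantile normalization repeated (0.004). With each array left out in turn, PGLS ranged from -0.091 to 0.073 with both drugs, from -0.1 to 0.063 with AZA, from -0.116 to 0.154 with APR, from -0.032 to 0.044 in APR-AZA against AZA, from -0.161 to 0.108 in APR-AZA against APR and from -0.145 to 0.125 in non-additivity. With APR the ranges were -0.122 to 0.084 for RPE, -0.019 to 0.041 for IDH1 and -0.067 to 0.178 for IDH2. ME1 ranged over -0.071 to 0.05 in APR-AZA against AZA, and in non-additivity TKT over -0.002 to 0.065 and IDH2 over -0.093 to 0.152. Among other genes, with AZA, RPEL1 ranged over -0.222 to 0.034 and the T cell marker CD3E over -0.03 to 0.162. EPCAM, at -0.33 with both drugs (adjusted p = 0.0216), lost its call with the compared groups alone (0.0515), without APR-AZA replicates 2 (0.0768) and 3 (0.0977) and without NT replicates 2 (0.0733) and 3 (0.0809), within a range of 0.00802 to 0.0977, and CD3E stood at 0.23 (adjusted p = 0.147). CYBB with both drugs also lost its call under median centring (0.118), the compared groups alone (0.108) and the replicate block (0.0939), which left 1 of 4 oxidase genes called. With AZA it lost its call under the same settings (0.0588, 0.093 and 0.0624). NQO1 with APR lost its call with the compared groups alone (0.437), without moderation (0.202) and under the replicate block (0.0533). Over all genes APR against NT called 1 gene, 2 with the dimmest 30% left out, and 0 with the compared groups alone, without moderation or under the block.

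The replicate numbers were not treated as pairing. Of 18 same-numbered array pairs 3 deviated together with r over 0.1, and the same number correlated best in 6 of 36 sets. With the replicate block 5 enzymes were called with both drugs, 4 with AZA, 0 with APR, 5 in APR-AZA against APR and 0 in the other comparisons.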
